A study of Mus musculus with 2 samples.

Results

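Sox genes encode transcription factors that bind DNA through a high mobility group (HMG) box, and 10 of them were followed in GL261, a cell line from a mouse glioma (strain C57BL/6, labelled as an astrocytoma). The 10 genes were Sox2, Sox21, Sox4, Sox11, Sox5, Sox6, Sox13, Sox8, Sox9 and Sox10, chosen by symbol among the 32285 genes that were counted. The count tables list 20 Sox genes in all. Single-cell RNA sequencing (scRNA-Seq) gave 1 library of adherent cells, grown in serum to about 80% confluency, and 1 library of neurosphere cells, which are free-floating aggregates. Neurosphere cells came from the same line in the same serum medium, to which Epidermal Growth Factor and Fibroblast Growth Factor (20 ng/mL each) and B-27 (1:50) had been added, and were collected on day 12. Both cultures were trypsinized and frozen before library construction, and neurosphere cells were also triturated. The question for each gene was whether its level, and the cells that held it, differed between the 2 cultures.

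Sox factors bend DNA in the minor groove and usually act together with partner factors, such as POU proteins in neural cells. Subgroups have characteristic roles. SoxB1 factors such as Sox2 maintain stem and progenitor cells, SoxB2 factors such as Sox21 counteract them, and SoxC factors (Sox4, Sox11) act in early neuronal and other differentiation. SoxD factors (Sox5, Sox6, Sox13) lack a domain that activates or represses transcription by itself and modulate other Sox factors. SoxE factors (Sox8, Sox9, Sox10) drive the oligodendrocyte lineage, neural crest derivatives and cartilage, where Sox9 works with Sox5 and Sox6.

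The HMG box is what makes these genes a family, and a stretch of its coding sequence is shown to compare them. Each line gives 30 coding bases, 5′ to 3′, read from the GENCODE transcripts of GRCm38 (mm10), with capitals marking bases that differ from Sox2.
Sox2: aggcccatgaacgccttcatggtatggtcc
Sox21: CggcccatgaacgccttcatggtGtggtcG
Sox4: CggcccatgaacgccttTatggtGtggtcG
Sox11: CggcccatgaacgccttcatggtGtggtcc
Sox5: CgTccAatgaaTgccttcatggtGtggGcG
Sox6: CgAccAatgaaTgcGttcatggtTtggGcA
Sox13: agAcccatgaaTgccttcatggtGtggGcc
Sox8: CggcccatgaaTgccttcatggtGtggGcA
Sox9: CgAcccatgaacgccttcatggtGtggGcG
Sox10: aggcccatgaacgccttcatggtGtggGcA
The windows lie at chr3:34650548-34650577 on the plus strand for Sox2, chr14:118235579-118235608 on the minus strand for Sox21, chr13:28952812-28952841 on the minus strand for Sox4, chr12:27342229-27342258 on the minus strand for Sox11, chr6:143841244-143841273 on the minus strand for Sox5, chr7:115489733-115489762 on the minus strand for Sox6, chr1:133385536-133385565 on the minus strand for Sox13, chr17:25570193-25570222 on the minus strand for Sox8, chr11:112782903-112782932 on the plus strand for Sox9 and chr15:79163372-79163401 on the minus strand for Sox10. The window was located by a stretch of the HMG box that is conserved in the encoded proteins, so part of the likeness is fixed by that choice. The number of bases that differed from Sox2 ranged from 2 in Sox11 to 8 in Sox6. The 7 pairs of genes in the same subgroup differed by a median of 3 bases (2 to 5), and the 38 other pairs by a median of 4 bases (1 to 8).

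The authors deposited raw counts of unique molecular identifiers (UMIs) per gene and cell. After mitochondrial and ribosomal genes and low-quality cells were removed, 5051 adherent and 4276 neurosphere cells were left, with 46290996 and 64943938 UMIs and a median of 8260 and 13198.5 UMIs per cell. Levels are given as CPM, the count of a gene per 1000000 of these UMIs, summed over all kept cells of a library, with exact 95% intervals in brackets. With 1 library per culture there was no replicate check and no test, and intervals cover counting error only. Shares of cells were also taken after each cell was thinned to 5000 UMIs, since neurosphere cells were deeper, which left 4464 adherent and 4196 neurosphere cells. Kept cells had a median of 2.02% mitochondrial UMIs in adherent and 3.97% in neurosphere cells, and the part of this difference in the results was not tested. The libraries shared 9 barcodes among kept cells. Of 11 astrocyte markers, 9 had at least 50 UMIs over both libraries, and the list summed to 827 CPM in adherent against 636 CPM in neurosphere cells. Slc1a3 had 17148 and 5231 UMIs and S100b 7437 and 16535 UMIs, while Gfap had 30 and 27 UMIs and Aqp4 had 0 UMIs in both. Both libraries are of 1 cell line, so there was no cell type that should lack a Sox gene to show what share free RNA gives.

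Of the 10 Sox genes, 7 had at least 50 UMIs over both libraries, the minimum for a comparison. Sox6, Sox8 and Sox11 were over 2-fold higher in neurosphere cells, Sox5 was over 2-fold lower, and Sox2, Sox4 and Sox10 lay within 2-fold. Over all 14654 genes with at least 50 UMIs, 21.7% passed 2-fold on the higher side in neurosphere cells and 11.7% on the lower side. At a threshold of 1.5-fold the same counts of Sox genes, 3 and 1, stood beside 38.2% and 18.3% of all genes. The median log2 ratio of neurosphere to adherent CPM was 0.22 over the 7 Sox genes and 0.32 over all genes compared. The 10 genes together were at 661 CPM in adherent against 1341 CPM in neurosphere cells. Sox6 took 22.8% [22.4, 23.3] of the Sox UMIs in adherent and 56.2% [55.9, 56.6] in neurosphere cells, and Sox2 took 31.6% and 13.4%.

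**Figure D1:**
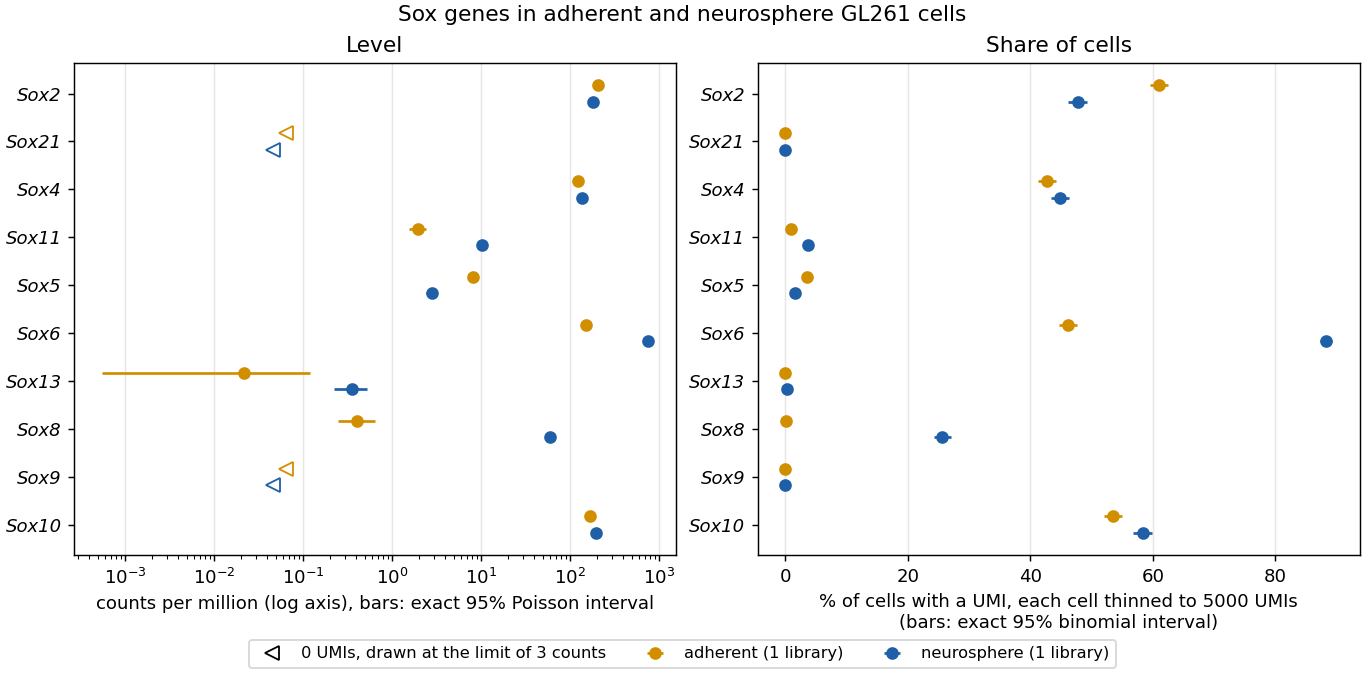
Levels of the 10 Sox genes in CPM on a log axis (left) and the percent of thinned cells with a UMI (right) in the adherent (orange) and neurosphere (blue) library, with exact 95% counting intervals. Sox8 and Sox6 are far higher in neurosphere cells, while Sox9 and Sox21 had 0 UMIs and are drawn as open triangles at the limit of 3 counts.

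Sox2 (ENSMUSG00000074637, chr3:34650405-34652461, plus strand), a pluripotency and neural stem cell factor, had 9668 UMIs in adherent and 11703 UMIs in neurosphere cells. Its level was 209 CPM [205, 213] in adherent against 180 CPM [177, 184] in neurosphere cells. The log2 ratio was -0.21 [-0.25, -0.17], but its sign depended on the scaling, and it was 0.01 when the total included mitochondrial and ribosomal genes and 0.02 with the trend on gene length removed. Sox2 was found in 74.9% of kept adherent and 71.7% of kept neurosphere cells, and in 61.0% [59.6, 62.5] and 47.7% [46.2, 49.2] of cells thinned to 5000 UMIs. The level of Sox2 therefore differed little between cultures, while its UMIs were held by a smaller share of neurosphere cells.

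That spread was measured against what equal levels in all cells would give. If every cell held Sox2 at the level of its library, 87.4% of the kept neurosphere cells would have had a UMI, against 71.7% found. The same gap in adherent cells was between 80.3% and 74.9%. In thinned cells the variance of the Sox2 count was 2.03 times its mean in neurosphere and 1.29 times in adherent cells. Up to 26 UMIs of Sox2 were counted in 1 neurosphere cell, and up to 15 UMIs in 1 adherent cell.

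Sox2 is a single-exon gene of 2057 bases inside Sox2ot, a long noncoding RNA gene on the same strand. Sox2ot had 978 UMIs in adherent and 2554 UMIs in neurosphere cells, 21.1 and 39.3 CPM, a log2 ratio of 0.90 [0.79, 1.00]. Since the genes overlap on 1 strand, the counting could split reads between them, and both values are uncertain to that extent. Sox21 (ENSMUSG00000061517, chr14:118233232-118237030, minus strand), the SoxB2 gene, had 0 UMIs in all 5764 adherent and 4951 neurosphere cells that were called, before any filter. A count of 0 allows up to 0.0648 CPM in adherent against 0.0462 CPM in neurosphere cells (3 counts). Of the coding genes beside it, Gm9376, at 29.9 kb, also had 0 UMIs in both libraries, while Gpr180 and Tgds, at 70.0 and 100.5 kb, had 873 and 716 UMIs in adherent and 2216 and 1748 UMIs in neurosphere cells. These neighbours, and those of Sox9 below, were chosen after their values were seen.

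Of the SoxC genes, Sox4 (ENSMUSG00000076431, chr13:28948919-28953713, minus strand) had 5745 UMIs in adherent and 8987 UMIs in neurosphere cells, or 124 CPM [121, 127] and 138 CPM [136, 141]. The log2 ratio of 0.16 [0.11, 0.21] turned to -0.06 with TMM scaling. Sox4 was found in 42.7% of thinned adherent and 44.8% of thinned neurosphere cells, so the cultures differed little in either measure. Its counts were less even in neurosphere cells, with a variance of 1.84 times the mean against 1.39 times in adherent cells.

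Sox11 (ENSMUSG00000063632, chr12:27334264-27342574, minus strand), a SoxC gene of immature neurons and progenitors, was low in both cultures. It had 90 UMIs in adherent and 674 UMIs in neurosphere cells, or 1.94 CPM [1.56, 2.39] and 10.4 CPM [9.61, 11.2]. The log2 ratio was 2.42 [2.10, 2.75], a 5.34-fold difference, and 1.89 in thinned cells. A UMI of Sox11 was found in 0.986% of thinned adherent and 3.69% of thinned neurosphere cells. Up to 19 UMIs were counted in 1 neurosphere cell.

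SoxD genes differed in opposite directions. Sox6 (ENSMUSG00000051910, chr7:115470872-116038796, minus strand) had 6987 UMIs in adherent and 48978 UMIs in neurosphere cells, or 151 CPM [147, 155] and 754 CPM [747, 761]. This 5.00-fold difference is a log2 ratio of 2.32 [2.29, 2.36], and the ratio stayed between 1.98 and 2.54 over the 10 alternatives run. A UMI of Sox6 was found in 46.1% [44.7, 47.6] of thinned adherent and 88.3% [87.3, 89.3] of thinned neurosphere cells. In neurosphere cells 59.1% of thinned cells held 3 or more UMIs of Sox6, against 7.28% in adherent cells. The variance of the neurosphere count was 3.78 times its mean, and up to 80 UMIs were counted in 1 cell.

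Sox5 (ENSMUSG00000041540, chr6:143828425-144781977, minus strand), which is closely related to Sox6 and often acts beside it, was lower in neurosphere cells. It had 373 UMIs in adherent and 182 UMIs in neurosphere cells, or 8.06 CPM [7.26, 8.92] and 2.80 CPM [2.41, 3.24]. The log2 ratio was -1.52 [-1.79, -1.26], which is 2.87-fold lower, and came nearest to 2-fold in thinned cells, at -1.03. The share of thinned cells with a UMI was 3.56% in adherent and 1.64% in neurosphere cells. Sox5 and Sox6 are the 2 longest of the 10 genes, 953553 and 567925 bases, of which 1.51% and 2.61% are exonic. Over all genes, longer ones had higher neurosphere ratios, and removing that trend moved Sox5 to -1.91 and Sox6 to 1.98. Whether reads in introns were counted is not given in the sources used here. Sox13 (ENSMUSG00000070643, chr1:133382303-133424377, minus strand) had 1 UMI in adherent and 23 UMIs in neurosphere cells, too few for the comparison, with a log2 ratio of 4.04 [1.41, 9.40].

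SoxE genes ranged from the largest difference of the 10 genes to no count at all. Sox8 (ENSMUSG00000024176, chr17:25565892-25570686, minus strand), which acts with Sox10 in the oligodendrocyte lineage, had 19 UMIs in adherent and 3930 UMIs in neurosphere cells. Its level was 0.410 CPM [0.247, 0.641] in adherent against 60.5 CPM [58.6, 62.4] in neurosphere cells, a 147-fold difference and a log2 ratio of 7.20 [6.56, 7.94]. That ratio was at percentile 99.7 of all genes compared. The 19 adherent UMIs lay in 19 cells, 0.376% of those kept, while 2001 neurosphere cells, 46.8%, held a UMI. In thinned cells the shares were 0.157% and 25.6%.

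An antisense gene, 2810468N07Rik, overlaps the start of Sox8 on the opposite strand and had 242 UMIs in adherent and 2259 UMIs in neurosphere cells. The sources used here do not say how strand was used in counting, so reads from the overlap cannot be told apart with certainty. Sox10 (ENSMUSG00000033006, chr15:79154908-79165240, minus strand), a determinant of the oligodendrocyte lineage and neural crest, had 7710 UMIs in adherent and 12622 UMIs in neurosphere cells. Its level was 167 CPM [163, 170] in adherent against 194 CPM [191, 198] in neurosphere cells, a log2 ratio of 0.22 [0.18, 0.26] that went down to 0.01 with TMM scaling. It was found in 53.5% of thinned adherent and 58.3% of thinned neurosphere cells. Sox10 was also evenly held, with a variance of 1.19 times the mean in adherent and 1.27 times in neurosphere cells.

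Sox9 (ENSMUSG00000000567, chr11:112782224-112787760, plus strand), the SoxE gene known for cartilage and glial cells, had 0 UMIs in every called cell of both libraries. As for Sox21, this allows up to 0.0648 CPM in adherent against 0.0462 CPM in neurosphere cells. The noncoding genes closest to Sox9 had few counts, with 3 and 4 UMIs of BC006965, a noncoding gene 248 bases away, and 0 and 2 UMIs of Gm11681, at 4.97 kb. The noncoding 2610035D17Rik, at 256 kb, had 5062 UMIs in adherent and 17008 UMIs in neurosphere cells, and the nearest coding gene, Slc39a11, at 457 kb, had 977 and 1647 UMIs. On the side of lower coordinates the nearest coding genes, Kcnj2, Kcnj16 and Map2k6, at 1705, 1754 and 2257 kb, had 0 to 12 UMIs.

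**Figure D2:**
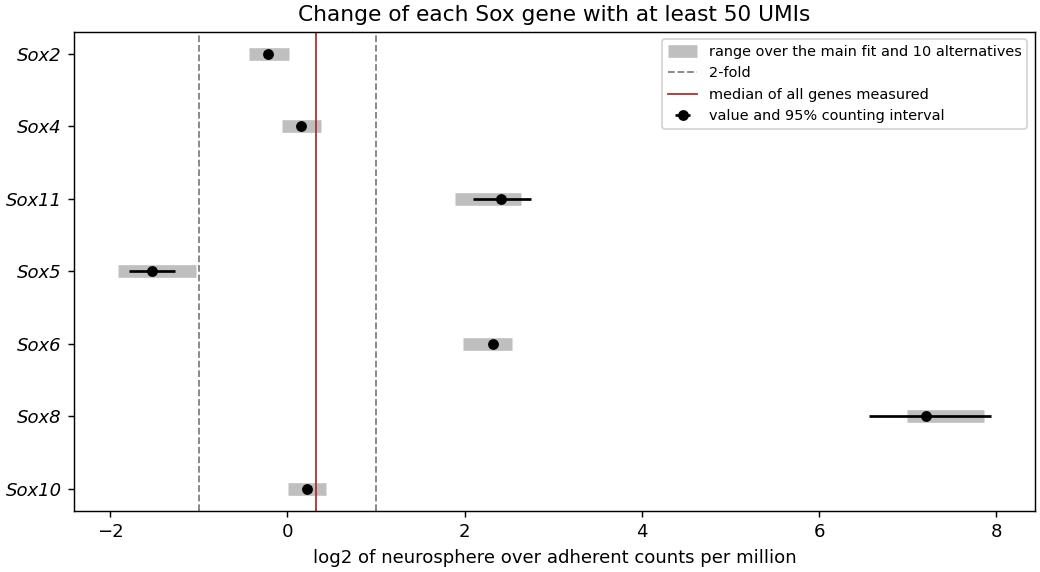
Log2 ratio of neurosphere to adherent CPM for the 7 Sox genes with at least 50 UMIs (points, with 95% counting intervals), over the range of 10 alternatives (grey bars). Sox11, Sox6 and Sox8 lie right of the dashed 2-fold line and Sox5 left of it under every alternative shown, while the bars of Sox2 and Sox4 cross 0.

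Of the 10 other Sox genes in the tables, only Sox12 reached 50 UMIs, with 250 UMIs in adherent and 309 UMIs in neurosphere cells and a log2 ratio of -0.18 [-0.43, 0.06]. Another 6 of them had 0 UMIs in both libraries. Of 5 POU partner genes, 4 were measured and 2 were over 2-fold higher in neurosphere cells. Pou3f3 was at 3.31 CPM in adherent against 21.8 CPM in neurosphere cells, and Pou3f2 at 11.3 and 30.2 CPM. The other 2, Pou2f1 and Pou3f1, had log2 ratios of 0.84 [0.72, 0.96] and 0.66 [0.19, 1.15].

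Genes of the programs in which Sox factors are known to act were counted by list. Of the oligodendrocyte lineage list, 14 of 15 genes were measured, 11 passed 2-fold on the higher side in neurosphere cells and 1 on the lower, with a median log2 ratio of 2.97. Olig1, a lineage factor, was at 141 CPM in adherent against 1292 CPM in neurosphere cells, where it was the most abundant member. The lower gene was the myelin gene Mbp, the most abundant member in adherent cells, at 255 CPM against 124 CPM in neurosphere cells. Of the cartilage list, 12 of 15 genes were measured, 9 were over 2-fold higher and 0 lower, with a median of 3.05. Col11a1 was at 539 CPM in adherent against 2204 CPM in neurosphere cells, and Col9a1 at 61.2 and 917 CPM, and both encode cartilage collagen chains. On the higher side both lists stood above the 21.7% of all genes, and on the lower side below the 11.7%, but no test compared them.

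The other lists had lower medians. Of 8 neural stem cell genes measured, 1 was over 2-fold higher and 1 lower, with a median of 0.39. The lower gene, the intermediate filament gene Vim, was at 5583 CPM in adherent against 1763 CPM in neurosphere cells, while Nes had a log2 ratio of 0.95. Of 5 neuronal genes measured, 3 were higher and 0 lower (median 1.49), with Map2 at a log2 ratio of 2.89 and Tubb3 at 0.68. Of 9 astrocyte genes, 0 were higher and 3 lower (median 0.05), with Slc1a3 at -2.20 and S100b at 0.66. Of 6 neural crest genes, 1 was higher and 1 lower (median -0.18), with Erbb3 at -0.50 and Ets1 at 0.03. Of 15 S phase genes, 4 were over 2-fold higher (median 0.66), and of 15 G2/M phase genes none was over 2-fold higher or lower (median -0.14). Of 8 immune markers, 2 were measured, Cd68 with 485 UMIs in adherent and 276 UMIs in neurosphere cells and Cx3cr1 with 103 and 96 UMIs, and the list summed to 12.9 and 6.56 CPM. Of 6 endothelial markers, 2 were measured, Flt1 with 1124 and 1428 UMIs and Pecam1 with 61 and 208 UMIs, and the list summed to 25.8 CPM in both. Of the markers under the minimum, P2ry12 had 3 UMIs in adherent and 32 UMIs in neurosphere cells, Csf1r 5 and 19 UMIs and Tek 7 and 36 UMIs, while Ptprc, Itgam and Cdh5 had 0 to 2 UMIs. Both libraries are of 1 cell line. Whether any immune or endothelial cells were present, and what part they had in the Sox levels, was not tested.

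Within a library, Sox levels differed between groups of cells that were clustered without the Sox genes. Clustering gave 11 clusters of adherent and 10 clusters of neurosphere cells, which are described by number and leading gene. In neurosphere cells, 6 of the 7 measured Sox genes were over 2-fold higher in their highest than in their lowest cluster, and Sox10, at 278 against 167 CPM, was not. The same held for 64.2% of all 13459 genes with at least 50 UMIs in that library. In adherent cells it held for 5 of the 6 Sox genes with at least 50 UMIs there and for 89.3% of 12632 genes. Clusters were also defined by many of these genes, so such a range was common. Clusters differed in depth, with median UMIs per cell between 7654 in cluster 1 and 22950.5 in cluster 9, and its part in these levels was not tested.

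Neurosphere cluster 1, led by the cartilage matrix gene Comp, held 604 cells. It had the highest Sox8, 173 CPM [162, 184], against 60.5 CPM in the whole library, and the lowest Sox2, 119 CPM [110, 129]. Its Sox4 was at 259 CPM [245, 273], beside 255 CPM in cluster 5, and these values lay within counting error of each other. Its Sox6 was the second highest, at 1151 CPM. Neurosphere cluster 5, led by the myelin gene Mbp, held 415 cells, and Gpr17 was among its 10 leading genes. It had the highest Sox2, 325 CPM [307, 343], Sox6, 1360 CPM [1324, 1397], Sox10, 278 CPM [262, 295], and Sox5, 8.12 CPM [5.55, 11.5]. Its Sox11 was the lowest, 3.05 CPM [1.57, 5.32], and its Sox8, at 68.8 CPM, was close to that of the whole library.

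Other neurosphere clusters were extreme for particular Sox genes. Cluster 7, led by Cp, had the lowest Sox8, 11.0 CPM [8.05, 14.8], with Sox2 at 260 CPM. The lowest cluster was at 18.9 CPM when the Sox genes were left in the clustering and at 18.6 CPM at a resolution of 0.8, and the range of Sox8 between clusters went from 15.7-fold to 9.15-fold and 9.22-fold. Cluster 9, led by Wnt7b, had the highest Sox11, 19.5 CPM [16.4, 23.1], with Sox8 at 23.0 CPM and the lowest Sox5, 0.875 CPM. The highest Sox11 of a cluster was 42.9 CPM with the Sox genes left in and 16.3 CPM at a resolution of 0.8. Cluster 4, led by the histone gene Hist1h2ap, had the lowest Sox4, 61.4 CPM [56.3, 67.0], and Sox6, 381 CPM [368, 395].

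In adherent cells, cluster 10 stood apart. It held 47 cells with a median of 2600 UMIs and 12.4% mitochondrial UMIs, was led by Lars2, and was given no name. Its Sox6 was at 1208 CPM [1026, 1414] and its Sox5 at 85.8 CPM [42.8, 153]. Without it, Sox6 ranged from 60.4 CPM in cluster 2, led by Gm13889, to 232 CPM in cluster 0, led by Col2a1, a 3.84-fold range in place of 20.0-fold. Sox11 then had the widest range, from 0.471 to 6.56 CPM on only 1 and 13 UMIs, while Sox5 ranged from 2.83 to 12.4 CPM, Sox4 from 86.3 to 190 CPM, Sox10 from 121 to 222 CPM and Sox2 from 170 to 256 CPM.

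**Figure D3:**
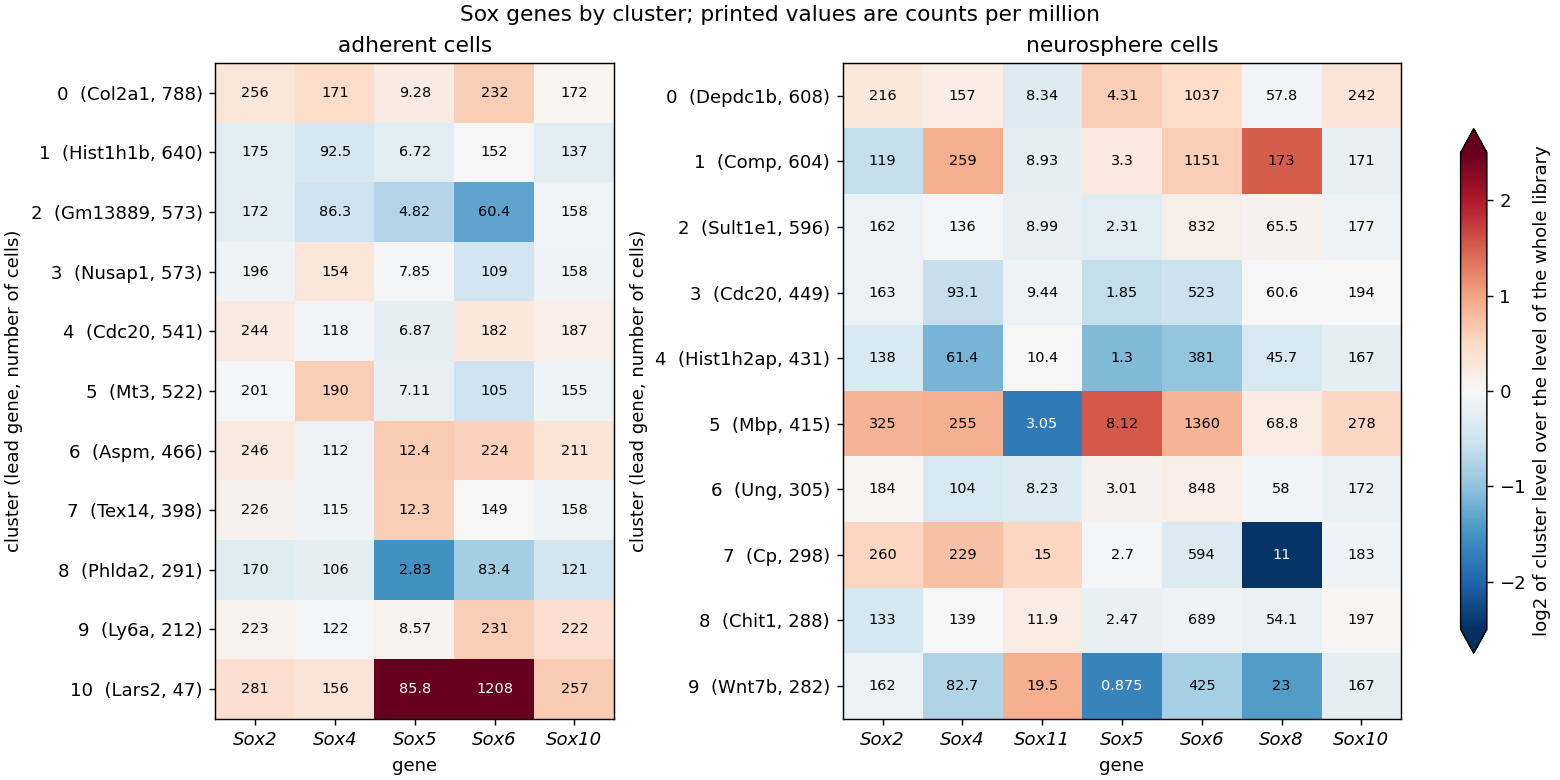
CPM of Sox genes in each cluster of adherent (left) and neurosphere (right) cells, with colours for the log2 ratio to the whole library and row labels giving the leading gene and number of cells. Neurosphere cluster 1 stands out for Sox8 (173 CPM), cluster 5 for Sox2 (325 CPM) and low Sox11 (3.05 CPM), and the 47 cells of adherent cluster 10 for Sox5 and Sox6.

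Cells were also ranked by the summed level of each gene list, and Sox levels in the highest quartile of cells were set against the lowest. In neurosphere cells, Sox8 was at 26.5 CPM in the lowest and 110 CPM in the highest quartile for cartilage genes, a log2 ratio of 2.06 [1.91, 2.21]. Sox6 followed the same list, from 418 to 1273 CPM, while Sox2 differed by only -0.06 [-0.14, 0.02] and Sox10 by 0.13 [0.05, 0.20]. Sox4 had a ratio of 0.83, Sox5 of 0.94 and Sox11 of -0.73. These quartiles differed in depth, with a median of 16995 UMIs in the lowest and 9030 UMIs in the highest, and the part of depth was not tested. In adherent cells Sox6 was also higher with the cartilage list, going from 79.9 to 253 CPM, a log2 ratio of 1.66 [1.56, 1.77], with median depths of 8647.5 and 7304.5 UMIs. Sox5 and Sox2 were higher there too, with ratios of 1.37 [0.90, 1.85] and 0.66 [0.58, 0.75]. Col11a1 alone gave 539 of the 732 CPM of the cartilage list in adherent cells. In neurosphere cells it gave 2204 of 4166 CPM, so both rankings rest in large part on that gene.

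Along the oligodendrocyte lineage list, neurosphere cells of the highest quartile had more Sox2, with a log2 ratio of 0.71 [0.64, 0.78], and more Sox5, with 1.31 [0.65, 2.00]. Sox4, Sox6, Sox8 and Sox10 had ratios of 0.55, 0.72, 0.75 and 0.46. Sox11 went the other way, from 13.8 CPM in the lowest to 3.83 CPM in the highest quartile, a log2 ratio of -1.85 [-2.31, -1.41]. The lowest quartile had a median of 16562 UMIs per cell for this list and the highest 10542 UMIs, against 15705 and 9312 UMIs for the astrocyte list, and the part of depth was not tested. Along the astrocyte list, the ratios were 0.98 for Sox2, 1.35 for Sox4, 2.34 for Sox5, 1.21 for Sox6, 0.26 for Sox8, 0.46 for Sox10 and -0.74 for Sox11. Sox2, Sox4 and Sox6 had larger ratios there than along the oligodendrocyte lineage list. So did Sox5, but its interval of [1.64, 3.08] overlapped the [0.65, 2.00] of the other list. Along the neural crest list, Sox5 had the largest ratio, 1.39 [0.73, 2.09], followed by 0.67 for Sox4, 0.66 for Sox2, 0.53 for Sox6 and 0.36 for Sox10, and Sox8 had -0.55. Along the neural stem cell list, whose summed level is mostly that of Vim, neurosphere Sox8 was lower in the highest quartile, at 36.5 against 83.7 CPM, and Sox11 was higher, at 13.4 against 8.32 CPM. In adherent cells Sox11 went the other way along this list, with a log2 ratio of -3.24 [-5.18, -1.76]. That ratio rested on 4 UMIs (0.368 CPM) in the highest and 39 UMIs (3.47 CPM) in the lowest quartile.

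Sox4, Sox5, Sox6 and Sox8 were lower in neurosphere cells rich in S phase genes. From the lowest to the highest quartile for S phase genes, Sox4 went from 223 to 91.8 CPM in neurosphere cells, a log2 ratio of -1.28 [-1.37, -1.19]. Sox8 had a ratio of -0.93 [-1.07, -0.80] and Sox6 of -0.81 [-0.85, -0.78]. Sox5 had -1.04 [-1.70, -0.38], and Sox2 had -0.23 and Sox10 -0.33. For G2/M genes the ratios were -1.07 for Sox4, -1.01 for Sox8, -0.76 [-1.39, -0.13] for Sox5, -0.61 for Sox6 and 0.01 for Sox10. Neurosphere cells rich in cycle genes were deeper, with medians of 15350 UMIs against 8930 UMIs for the S phase list. For the G2/M list the medians were 17971 and 8641 UMIs, and the part of depth was not tested. In adherent cells, Sox4 also had lower levels in the highest quartile, with ratios of -0.38 for S phase and -0.57 for G2/M genes.

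**Figure D4:**
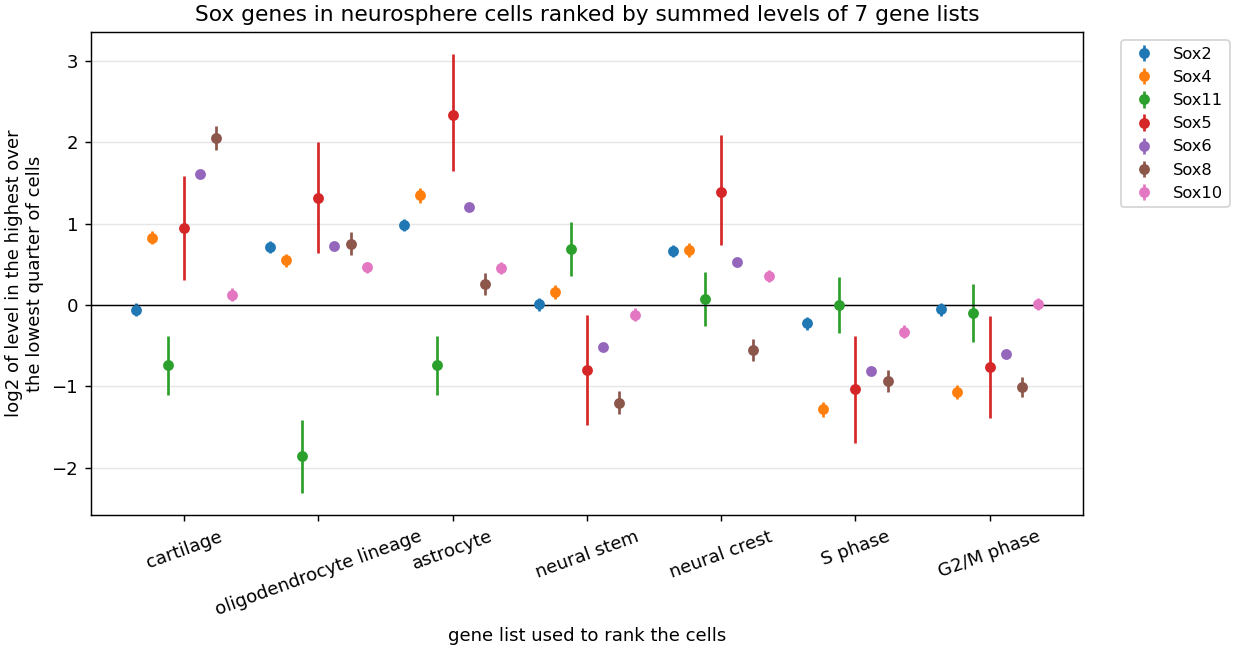
Log2 ratio of the 7 measured Sox genes between the highest and the lowest quartile of neurosphere cells, ranked by the summed level of 7 gene lists (points, with 95% counting intervals). Among these genes, Sox8 has the highest point for the cartilage list (2.06), Sox11 the lowest for the oligodendrocyte lineage list (-1.85) and Sox4 the lowest for S phase genes (-1.28).

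Several Sox genes were usually counted in the same cell. The median kept cell held UMIs of 3 of the 10 genes in adherent and 4 in neurosphere cells, or 2 and 3 after thinning. None of the 10 genes was found in 6.05% of thinned adherent and 1.72% of thinned neurosphere cells. Among Sox2, Sox4, Sox6, Sox8 and Sox10, whatever the other genes, the most frequent combination in adherent cells was Sox2 with Sox10 (10.0% of thinned cells). In neurosphere cells, Sox2 with Sox4, Sox6 and Sox10 (10.8%) and Sox6 with Sox10 (10.6%) were about equally frequent.

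Co-expression was measured as the number of thinned cells with UMIs of both genes, divided by the number that the product of the shares of the 2 genes gives. Of 14 adherent pairs with enough cells, the interval left out 1 in 0 pairs, and of 22 neurosphere pairs in 3. Over pairs of all genes, this was the case for 2.09% in adherent and 3.15% in neurosphere cells. The intervals treat the number of cells with both genes as free, although the shares limit it, so they are wide for common genes and an interval that includes 1 does not show that a pair is independent. The ratios were 1.08 [1.02, 1.16] for Sox2 with Sox4 and 1.39 [1.01, 1.87] for Sox4 with Sox5, and 0.81 [0.73, 0.89] for Sox2 with Sox8. A UMI of Sox8 was found in 20.7% of neurosphere cells with Sox2 and in 30.1% of those without. When the product was taken within each cluster, which was chosen after seeing the data, Sox2 with Sox8 had a ratio of 0.85 [0.77, 0.94], while Sox2 with Sox4 had 1.06 [1.00, 1.13] and Sox4 with Sox5 had 1.26 [0.91, 1.70]. Sox8 with Sox10, both SoxE genes, had a ratio of 0.95 [0.87, 1.02], and Sox5 with Sox6, both SoxD genes, had 1.07 [0.82, 1.36] in neurosphere and 1.23 [0.99, 1.51] in adherent cells. A neurosphere pair with Sox6, which 88.3% of thinned cells held, could not exceed a ratio of 1.13, so this measure is nearly flat for Sox6, and the upper bound of 1.36 for Sox5 with Sox6 lies past that limit. Sox4 with Sox6 had a ratio of 1.04 [0.99, 1.09], while the log counts of both genes had r = 0.21 over the 4196 cells.

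**Figure D5:**
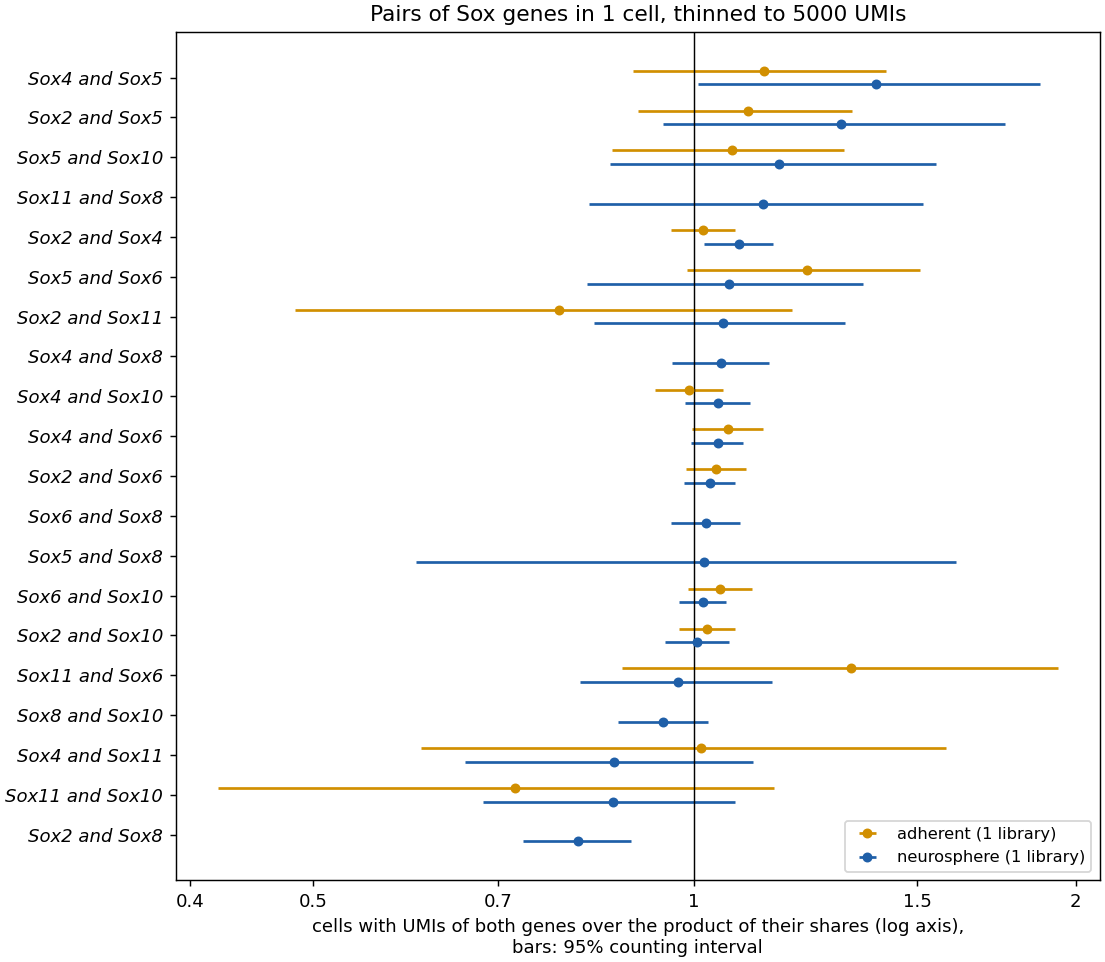
Ratio of cells holding UMIs of both genes to the number given by the product of their shares, on a log axis, for pairs in adherent (orange) and neurosphere (blue) cells thinned to 5000 UMIs, with 95% counting intervals (pairs with Sox13 are not drawn). Sox2 with Sox8 (0.81) is the lowest neurosphere pair, and adherent Sox11 with Sox10 (0.72) and Sox2 with Sox11 (0.78) lie lower, with intervals that include 1.

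For Sox genes found in at least 10% of thinned cells, the genes with the most similar counts were ranked by Pearson's r of log counts across thinned cells, and up to 3 with r of at least 0.2 are named. Sox6 was most like Col11a1 in both cultures, with r = 0.27 over 4464 adherent and r = 0.51 over 4196 neurosphere cells. It was followed by Nkain2 (0.24) and Chl1 (0.22) in adherent cells and by Malat1 (0.43) and Tcf4 (0.42) in neurosphere cells. In neurosphere cells, Sox2 was most like Mbp (0.20), Sox4 most like Sparc (0.22), Ppp2r2b (0.22) and Sat1 (0.22), and Sox8 most like Zfp609 (0.25), Podxl2 (0.25) and Enah (0.24). In thinned cells, no gene reached 0.2 for Sox10 in either culture, or for Sox2 and Sox4 in adherent cells. These cells share a library, and the values describe it without a test.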

How the data were processed

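The authors deposited raw UMI counts per gene and cell for 2 libraries (10x Genomics single cell 3′ v3), made with Cell Ranger 7.0.1 on mm10 per the submitters' processing notes. Positions came from GENCODE vM21 (GRCm38), where 32235 of 32285 gene identifiers matched. The 13 mitochondrial and 101 ribosomal genes were removed, then cells under 1000 UMIs or under 1250 (adherent) or 2250 (neurosphere) genes. This took 5764 called adherent cells (68531063 UMIs) to 5051 and 4951 neurosphere cells (82832873 UMIs) to 4276. No doublets were removed and no caller was run, but cells over the 95th percentile of UMIs were left out as an alternative.

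UMIs were summed per library and divided by the total on the 32171 genes left (CPM). Ratios have exact conditional, levels Poisson and shares Clopper-Pearson binomial intervals at 95%. They cover counting error only, and those of ratios were tested on simulated data. A difference was called past 2-fold with at least 50 UMIs over both libraries. Clusters came from Seurat 5.3.0 (2000 variable genes without the Sox genes, 17 and 18 PCs, resolution 1), TMM factors from edgeR 4.0.16, and the rest from scipy 1.17.1, numpy 2.4.6, statsmodels 0.14.6 and pandas 2.3.3 under Python 3.11.15.

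The text names all 10 Sox genes, up to 4 other Sox and POU genes per list, the 2 most abundant genes of each program list (1 of them is not reported here), the leading gene of clusters described, and the 3 most similar genes at r of at least 0.2. Other genes named were chosen after their values were seen. The Sox genes, lists and settings were chosen with earlier results of these data known.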

Additional observations from a re-analysis of the deposited data

Results flagged for a closer look

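Cell barcodes removed by the filters also held Sox UMIs, above the 3 counts that a count of 0 allows. These barcodes, 713 adherent and 675 neurosphere, are left out of the comparisons except where all called cells were an alternative, and mitochondrial genes took a median of 48.8% and 87.0% of their UMIs. Among removed adherent barcodes, 21.6% held a UMI of Sox6, 10.1% of Sox10, 8.84% of Sox2, 7.71% of Sox4 and 1.96% of Sox5. Among removed neurosphere barcodes, 28.1% held a UMI of Sox6, 11.9% of Sox10, 8.59% of Sox2, 8.44% of Sox4, 5.04% of Sox8 and 0.593% of Sox11. Sox8 had 0 UMIs in the removed adherent barcodes and 41 UMIs in the removed neurosphere barcodes.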

How the results depend on the processing

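Over 10 alternatives in cell filter, scaling, fold change formula, gene length and thinning, and at a threshold of 1.5-fold, 3 Sox genes were past the threshold on the higher side and 1 on the lower, and under the 10 alternatives at 2-fold these were Sox6, Sox8, Sox11 and Sox5 each time. Scaling moved the median log2 ratio of all genes from 0.32 to 0.11 (TMM) and to 0.54 (the total including mitochondrial and ribosomal genes), shifts of -0.22 and 0.22. The sign turned for Sox4 under TMM (-0.0597) and for Sox2 with those genes included (0.00639) and with the length trend removed (0.0195). Relative to the median of all genes, Sox2 and Sox4 lay below it under all 3. The number of neurosphere pairs whose interval left out 1 went from 3 to 1 when thinned to 3000 UMIs and to 1 when products were taken within clusters, and Sox2 with Sox8 was the pair that remained. At 3000 UMIs the ratio of Sox2 with Sox4 stayed at 1.08 and that of Sox4 with Sox5 was 1.07 in place of 1.39. Leaving out adherent cluster 10, chosen after seeing the data, changed the Sox genes over 2-fold between adherent clusters from 5 to 4 of 6. The share over all genes was 89.3% with cluster 10 included and was not computed without it. With the Sox genes left in the clustering, the range between clusters went from 30.3-fold to 20.2-fold for adherent Sox5, from 6.42-fold to 13.1-fold for neurosphere Sox11 and from 15.7-fold to 9.15-fold for neurosphere Sox8, which was 9.22-fold at a resolution of 0.8, and the cause was not tested. The neurosphere cluster with the most Sox4 was the one with the most Sox2 at that resolution. Sox13, Sox9 and Sox21 had too few counts for any statement on change. With 1 library per culture no replicate could be left out. No paired analysis was possible because each group is 1 library.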

Other observations

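Of genes that overlap Sox6 on the opposite strand, Gm45025 had 41 UMIs in adherent and 640 UMIs in neurosphere cells. Sox6os lay within 2-fold, at 1.06 CPM in adherent against 1.79 CPM in neurosphere cells, a log2 ratio of 0.75 [0.26, 1.27]. Next to Sox10, the noncoding gene Gm10863, 801 bases away, was at 28.7 CPM in adherent against 61.8 CPM in neurosphere cells, while the coding gene Polr2f, 3134 bases away, was at 1341 and 566 CPM. Next to Sox8, Lmf1 was at 16.9 CPM in adherent against 44.4 CPM in neurosphere cells. These genes were chosen after their values were seen.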
